A study of Mus musculus with 24 samples.

Results

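The cytosolic ribosomal protein genes encode the protein shell of the ribosome outside mitochondria. They were taken by name as the protein-coding genes with the usual Rps, Rpl and Rplp symbols plus Rpsa, each Ensembl gene counted once. This gave 76 genes of 55487 distinct gene entries, 30 for the small subunit and 46 for the large subunit, and all 76 had enough counts to be tested. Fau, Rack1, Rps3a1 and paralogs such as Rpl22l1 fall outside that naming rule and are described separately. Read counts came from 24 bulk RNA-seq libraries of mouse LSK cells, the lineage-negative Sca-1-positive KIT-positive fraction that holds blood stem cells and early progenitors. The study used a Tet-off mouse that expresses human MLL::ENL (ME), a leukaemia fusion gene, from a chosen age onwards.

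The 6 groups held 4 libraries each. At birth (P0) the cells came from the liver, either wild type (WT) or with ME induced at E10.5. At postnatal day 28 (P28) they came from bone marrow, and the groups were WT, ME induced at E10.5 (fetal-induced), ME induced at P0 (birth-induced) and a group labelled ME RLT Vav Txp, also with ME induced at E10.5. The sources used here do not spell out RLT or Txp, and the RLT libraries were numbered in the order of deposit. The design text states 4 biological replicates per group. The p-values rest on a spread between libraries that was estimated per gene and pooled over all 6 groups, not on the compared groups alone. All groups but the WT ones therefore carry the same fusion, and the P0 and P28 groups differ in both age and organ. The sort is LSK in the sample labels, while the design text names lineage-negative KIT-positive progenitors. Human MLL::ENL transcripts were not analysed here.

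Each ribosome holds 1 copy of nearly every one of these proteins, so cells make them in matched amounts. Their mRNAs are short, abundant and long-lived. Most begin with a cytosine followed by an uninterrupted run of pyrimidines, the terminal oligopyrimidine (TOP) tract, through which mTOR signalling and the RNA-binding protein LARP1 set their translation. The small subunit decodes mRNA, the large subunit forms peptide bonds, and inherited loss of 1 copy of several members, RPS19 among them, causes the marrow failure of Diamond-Blackfan anaemia. In blood stem cells protein synthesis is held low, and growth and division raise the demand for ribosomes.

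A start-site sequence was found in the RefSeq table (GRCm38.p6) for 56 of the 76 members. The windows below run from 15 bases before to 15 bases from the annotated start of transcription, so each spans the promoter edge and the first bases of the first exon. The capitals mark the longest run of C and T in the window. The first 4 belong to members that fell most in fetal-induced ME cells at P28, the next 3 to members whose fall did not pass the test there, and the last to Rps6.
Rps12 (chr10:23787195-23787224, minus strand): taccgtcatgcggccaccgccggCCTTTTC
Rps24 (chr14:24490663-24490692, plus strand): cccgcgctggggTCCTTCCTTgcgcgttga
Rpl39 (chrX:37085208-37085237, minus strand): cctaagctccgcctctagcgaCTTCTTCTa
Rps21 (chr2:180257364-180257393, plus strand): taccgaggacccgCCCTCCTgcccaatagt
Rpl4 (chr9:64173372-64173401, plus strand): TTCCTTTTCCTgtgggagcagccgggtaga
Rplp0 (chr5:115559452-115559481, plus strand): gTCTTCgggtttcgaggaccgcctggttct
Rpl23 (chr11:97782425-97782454, minus strand): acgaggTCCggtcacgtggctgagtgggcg
Rps6 (chr4:86857353-86857382, minus strand): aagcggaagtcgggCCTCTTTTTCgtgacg

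A pyrimidine run of at least 6 bases was present in 35 of the 56 member windows (62.5%). It was present in 32.4% of the 17492 protein-coding genes searched, which also leave out chromosome 18. A run of at least 8 bases was present in 44.6% of member windows and 14.0% of all. Within 250 bases before to 50 after the start, the letters CGGAAG, searched on both strands, occurred in 67.9% of members and 21.4% of all genes. The GC box core GGGCGG occurred in 60.7% and 45.5%, GCCATC in 23.2% and 13.6%, and TATAAA in 10.7% and 13.5%. A match is only a match of letters, and the window depends on the annotated start. Where a gene had several annotated starts, the one with the longest run was kept, for members and all genes alike. The shares of runs are thus raised for genes with more starts, and the number of starts was not compared. Rpl4, with a P28 fold change near 0, held a run of 11 bases, while Rps12, which fell most, held a run of 7 bases. Each of these runs reached an edge of its window, that of Rpl4 before the annotated start and that of Rps12 after it. Their full lengths are thus not known here.

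Library depth ran from 31233688 to 89774511 counts. Kit and Ly6a (the gene for Sca-1) were present in every library, and none of the 9 LSK markers was at or under 3 counts throughout any group. The P0 libraries did not look alike. In the P0 WT library numbered 1, the 9 detected erythroid markers summed to 662 CPM (counts scaled to a common library total, after TMM) and the 8 neutrophil and myeloid markers to 877 CPM, whereas the other three P0 WT libraries had 13633 to 17853 and 10199.6 to 15855 CPM. The P0 ME libraries showed the same split in these markers, with 274 CPM of erythroid and 770.3 CPM of neutrophil and myeloid markers in library 1, and 5362 to 14043 and 17183 to 31941 CPM in the others. The mast and basophil markers differed between the P0 groups. They summed to 586 to 5858 CPM in P0 WT, highest in library 1, and to 45.3 to 590 CPM in P0 ME, lowest in library 1. The part of that difference in the P0 member results was not tested. Kit ran from 169 CPM in P0 WT library 4 to 1451 CPM in P0 WT library 1, the extremes of all libraries, and from 453 to 1360 CPM in P0 ME. P0 WT library 4 also had the lowest LSK marker sum (1876 CPM) and the highest share of mitochondrially encoded counts (3.46%). Its Ly6a level (228 CPM) was the highest at P0. In the RLT group the 10 macrophage markers summed to between 790 and 3364 CPM, against 77.6 to 111 CPM in P28 WT and 48.5 to 77.2 CPM in fetal-induced ME. Other marker sums of the P28 RLT and ME groups that lay apart from P28 WT are given beside the member results, with Kit and Ly6a. In bulk RNA, a change in which cells were sorted and a change in RNA per cell cannot be told apart.

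Levels of the members in P28 WT cells covered a wide range. On a per-length scale, which allows genes to be compared, the median member had 779 CPM per kilobase of transcript. Rpl32 (3603 CPM per kilobase), Rpl13 (3087) and Rps19 (2446) were the highest. Rpl24 (3.06) and Rps10 (8.98) were the lowest, with Rpl13a (23.8) and Rpl23a (94.1) next. How the authors' counting treated reads that match more than 1 place is not given in the sources used here, and these 4 genes are known to have near-identical pseudogene copies, so their low counts are uncertain. Rps20, at 198 CPM per kilobase, was the next lowest, although its level was 735 CPM. Its annotated transcript has 3706 bases but a coding length of 357, and may not be the mRNA present, so that rank is uncertain.

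The share of all counts that fell in the 76 members was lower in both P28 ME groups than in P28 WT. In the P28 WT libraries the share was 5.44, 6.51, 5.56 and 4.99%, with a mean of 5.62% ± 0.636 (SD, n = 4). In fetal-induced ME it was 2.56, 3.03, 2.66 and 2.78%, with a mean of 2.76% ± 0.203, and in birth-induced ME it was 3.23, 3.18, 2.91 and 3.20%, with a mean of 3.13% ± 0.147. Every library of both ME groups lay below every P28 WT library. The RLT libraries held 3.28, 5.68, 5.29 and 5.53%, so that 3 lay within the WT range and library 1 lay near the birth-induced ME group. At P0 the WT shares were 3.97, 4.64, 4.81 and 7.43% and the ME shares 3.16, 4.07, 3.38 and 4.25%. The P0 groups overlap, although the ME library is the lower one within each of the 4 library numbers.

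**Figure D1:**
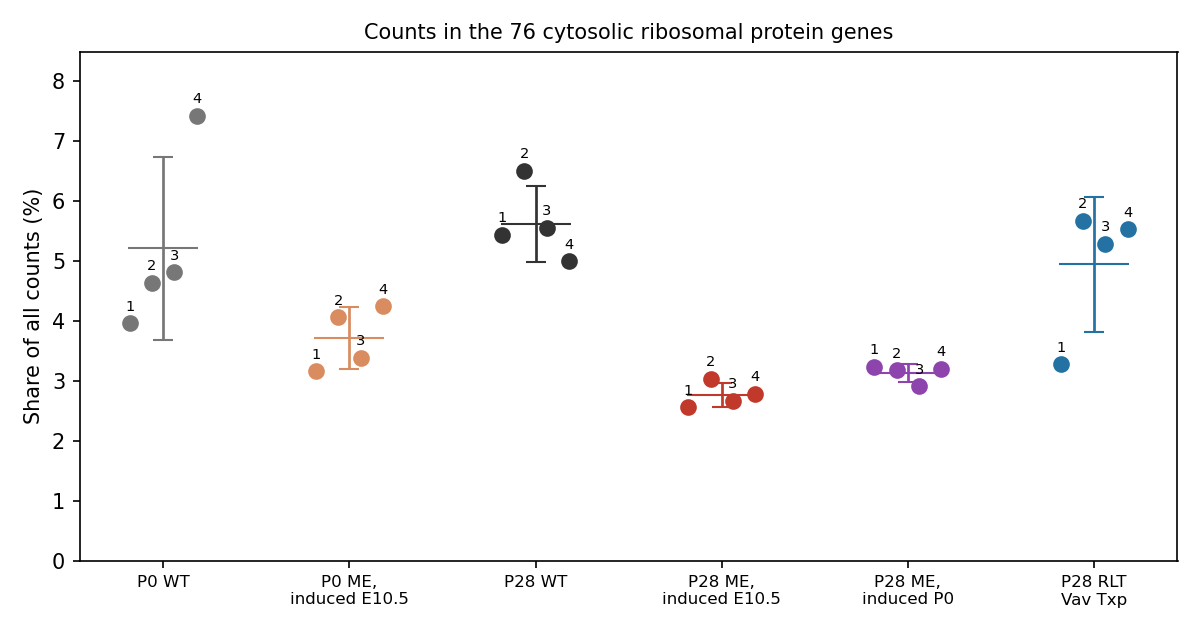
Share of each library's counts in the 76 members, in percent, for the 6 groups. Points are libraries with their number, the horizontal bar is the group mean and the whiskers are 1 SD (n = 4); the fetal-induced ME libraries sit between 2.56 and 3.03%, below all P28 WT libraries (4.99 to 6.51%).

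Most of these genes were lower in fetal-induced ME cells at P28. Against P28 WT, 65 of 76 members passed the test as lower in fetal-induced ME cells and none as higher (edgeR quasi-likelihood test, Benjamini-Hochberg adjusted p under 0.05 over all 23059 genes tested). Over all genes, 4.44% were called lower. The median log2 fold change of the members was -0.999, beside -0.10 for all genes tested. The 4 ME libraries lay below the 4 WT libraries for 73 members, and 11.6% of all genes showed that separation downwards. TMM scaling sets this balance: with plain library totals, 33.3% of all called genes were higher in ME in place of 63.8%, the median of all genes was -0.23 and that of the members was -1.13. Without P28 WT library 2, 43 members were called, with a median of -0.94. Some cell markers also lay wholly apart between these groups. Kit was at 889 to 1241 CPM in fetal-induced ME against 586 to 748 CPM in WT, and Ly6a at 209.7 to 253 against 267 to 337 CPM. The lymphoid markers summed to 396 to 595 against 229 to 319 CPM, and the neutrophil and myeloid markers to 1004 to 1797 against 705 to 926 CPM. The part of these shifts in the member result was not tested.

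Rps12, a small-subunit protein known from flies for its part in cell competition, fell most of the 76. Its level was 426, 597, 396 and 322 CPM in the P28 WT libraries and 128, 193, 141 and 161 CPM in fetal-induced ME, a log2 fold change of -1.48 ± 0.32 (SE; adjusted p = 0.0059). No ME library reached the lowest WT library. Rps24, a small-subunit protein mutated in some Diamond-Blackfan patients, had 1050.5, 1183, 957 and 746 CPM in WT and 326, 415, 315 and 407 CPM in ME (-1.43 ± 0.30, adjusted p = 0.0047). The groups were again apart by more than the spread within either.

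Rpl39, a very small protein lining the peptide exit tunnel, had 275, 366, 261 and 196 CPM in WT against 94.3, 130.3, 93.4 and 114 CPM in ME (-1.35 ± 0.31, adjusted p = 0.0075). Rps21 had 249, 319.6, 181 and 154 CPM in WT against 81.9, 101, 79.2 and 94.4 CPM in ME (-1.34 ± 0.31, adjusted p = 0.0079). Rpl17, also near the exit tunnel, had 454, 586, 495 and 461 CPM against 179, 220.0, 197 and 217 CPM (-1.30 ± 0.27, adjusted p = 0.0048). In all 3 the highest ME library stayed below the lowest WT library, and WT library 2 was the highest of its group.

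Rpl4, a large-subunit protein with a long extension into the ribosome core, was the exception. It had 1481, 1674, 1596 and 1458 CPM in P28 WT and 1485, 1589.9, 1490.0 and 1486 CPM in fetal-induced ME, a log2 fold change of -0.04 ± 0.14 (adjusted p = 0.906), and the groups overlapped. Rpl23 (-0.41, adjusted p = 0.19) and Rps2 (-0.41, adjusted p = 0.167) were the other members with overlapping groups. Rplp0, the stalk protein often used as a reference gene in qPCR, had 1390.3, 1653, 1711 and 1525 CPM in WT and 1127, 1318, 1182 and 971 CPM in ME. Its libraries did not overlap, but its log2 fold change of -0.45 ± 0.17 did not pass (adjusted p = 0.0879). The remaining members not called were Rps10, Rps15, Rpl18, Rpl21, Rpl24, Rpl28 and Rplp2, a second stalk protein.

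The calls covered both subunits. Of the 30 small-subunit members 27 were called, with a median of -1.14, and of the 46 large-subunit members 38, with a median of -0.89. In counts, the large-subunit members together had 1.20 to 1.32 times the small-subunit members in the P28 WT libraries, 1.48 to 1.52 times in fetal-induced ME and 1.47 to 1.51 times in birth-induced ME. These ranges of the ratio do not overlap between WT and either ME group. The median transcript is 650.5 bases for the small-subunit members and 761.5 for the large-subunit members, and the difference between the subunits was not tested.

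**Figure D2:**
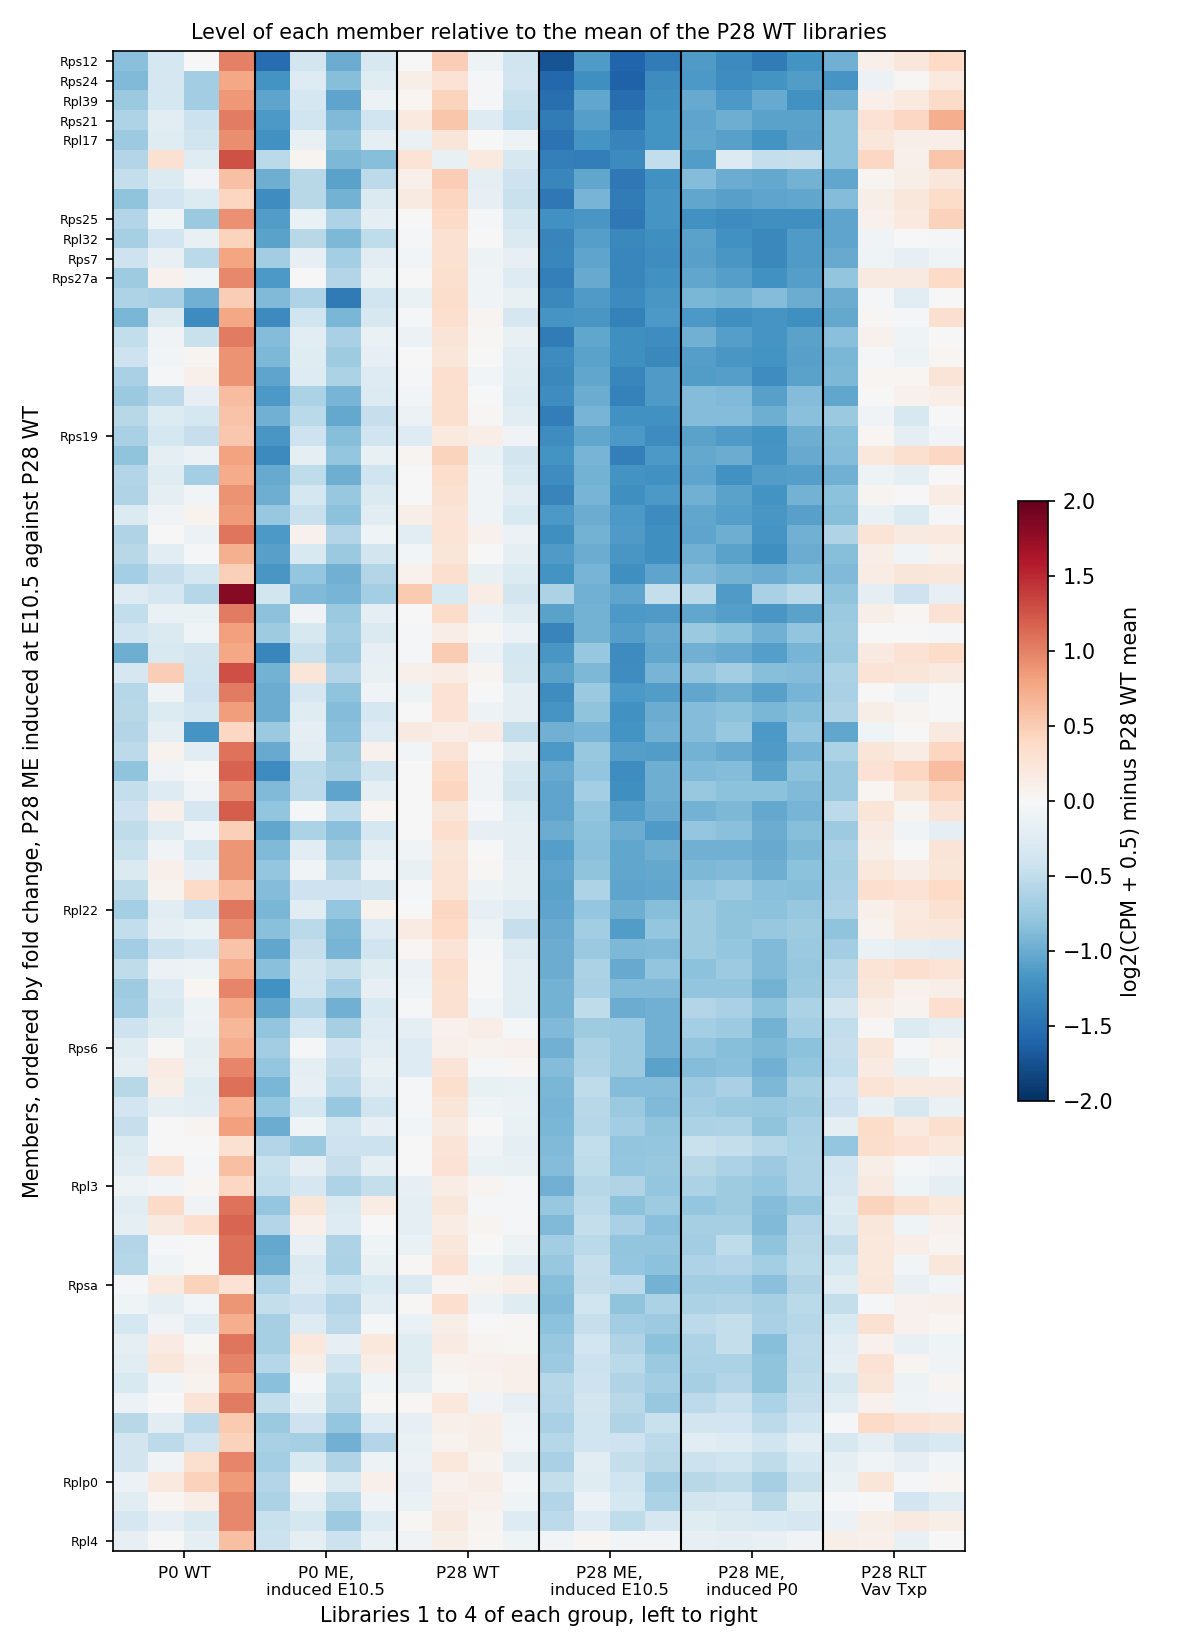
Each row is a member and each column a library, grouped by the 6 groups; colour is log2(CPM + 0.5) minus the mean of the P28 WT libraries. Rows are ordered, with the members given per library in the text named, by the fold change of fetal-induced ME against WT at P28, from Rps12 (-1.48) to Rpl4 (-0.04), and RLT library 1 is lower than the other RLT libraries in most rows.

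Members whose human counterparts are mutated in Diamond-Blackfan anaemia were among those lowered. Rps19 had 1287, 1754, 1687 and 1464 CPM in P28 WT and 646, 745, 691 and 639.7 CPM in fetal-induced ME (-1.19 ± 0.22, adjusted p = 0.0025). Rps7 fell by 1.24 on the log2 scale (adjusted p = 0.0025) and Rpl35a by 1.08 (adjusted p = 0.0158). Rps26 changed less (-0.68, adjusted p = 0.0224), and Rps10, at 1.38 to 3.00 CPM in ME and 3.43 to 5.42 CPM in WT, did not pass in edgeR (-1.29, adjusted p = 0.0668), while DESeq2 and voom called it. Rps14, the gene within the commonly deleted region of 5q- syndrome, fell by 1.00 (adjusted p = 0.0032).

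Rpl5 and Rpl11 form, with 5S rRNA, the complex that binds MDM2 and stabilises p53 when ribosome assembly fails. Rpl5 had a log2 fold change of -0.71 ± 0.23 (adjusted p = 0.0416) and Rpl11 of -0.67 ± 0.19 (adjusted p = 0.0196). Rpl22, which is recurrently lost in T-cell leukaemia, had 279.6, 373, 248 and 232 CPM in WT and 134, 163, 140.5 and 155 CPM in ME (-0.94 ± 0.28, adjusted p = 0.0287). Rpl10, which helps the subunits join, fell by 0.75 on the log2 scale (adjusted p = 0.019). The groups did not overlap for any of these 4 genes.

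Rps6, the classical substrate of the S6 kinases downstream of mTOR, had 897, 1161, 1133 and 1140.1 CPM in WT and 551, 694, 643 and 556 CPM in ME (-0.83 ± 0.19, adjusted p = 0.0069). Rpl3, which shapes the peptidyl transferase centre, had 1570.3, 1941, 1817 and 1721 CPM in WT and 899, 1184, 1155 and 1023 CPM in ME (-0.73 ± 0.14, adjusted p = 0.003). Rpsa, also known as the laminin receptor, had 729, 917, 929 and 969 CPM in WT and 486, 635, 614 and 456 CPM in ME (-0.69 ± 0.15, adjusted p = 0.0048). Rps27a, made as a fusion with ubiquitin, fell by 1.23 (adjusted p = 0.0059). For each of the 4 the groups were fully apart, and the shifts of Rpl3 and Rpsa were smaller than that of the median member.

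**Figure D3:**
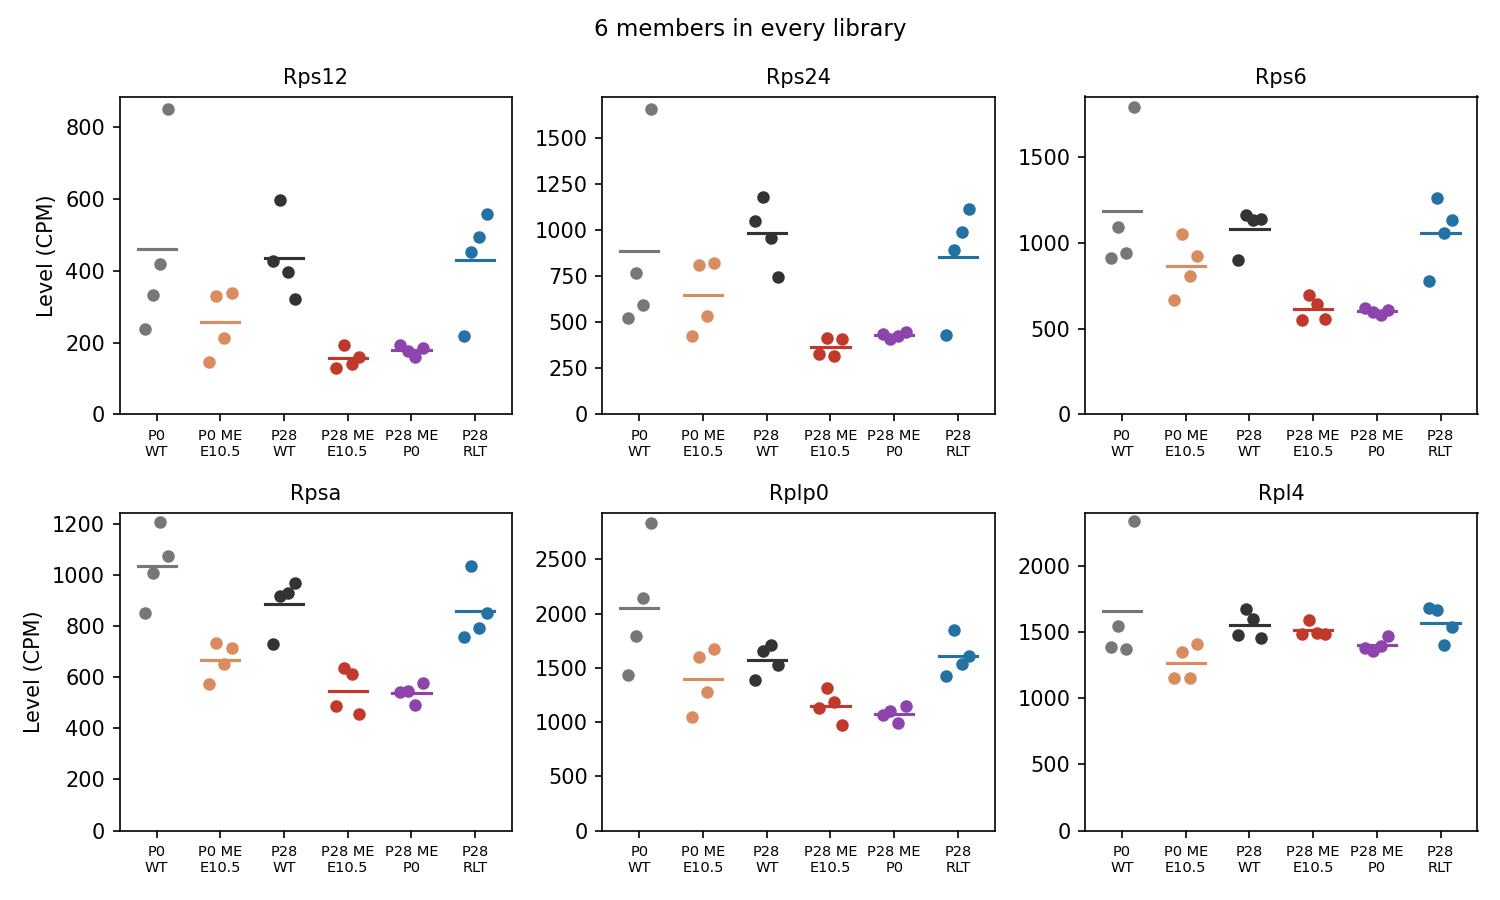
Level in CPM of 6 members in all 24 libraries, with 1 point per library and a bar at each group mean. Rps12, Rps24, Rps6 and Rpsa are lower in both P28 ME groups than in P28 WT, Rplp0 is lower by less, and Rpl4 stays between 1359.8 and 1674 CPM across the P28 WT and both ME groups.

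The members are short, with a median annotated transcript of 705 bases against 2740 for the other 15454 protein-coding genes tested, and short genes as a class were lower in these ME libraries. Among other protein-coding genes, the median log2 fold change of fetal-induced ME against WT was -0.56 for transcripts under 800 bases, -0.26 from 800 to 1500, 0.08 from 1500 to 3000 and 0.32 above. The members in the same length classes had medians of -1.06 (46 genes), -0.80 (24), -0.71 (5) and -1.16 (1). In the shortest class 87.0% of members and 14.1% of other genes were called lower. Members were thus lower than other genes of like length in every class, and the shift shared with short genes was about as large as the remainder in the shortest one. Across the 15435 other protein-coding genes with a length and all comparisons, the rank correlation of fold change with length was highest for birth-induced ME (0.31) and fetal-induced ME (0.29), given as a description across genes that share the same libraries.

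The slope of log2 level on log2 transcript length, computed per library against the mean of all libraries, was -0.17 to -0.01 in P28 WT, 0.15 to 0.25 in fetal-induced ME and 0.15 to 0.22 in birth-induced ME. In RLT library 1 it was 0.06, and it was between -0.16 and -0.15 in the other three RLT libraries. In the P0 WT libraries it was 0.07, -0.10, -0.04 and -0.54. The libraries with the lowest member shares were thus also those with relatively fewer counts in short genes. Counts from the mitochondrial genome moved in the same direction, at 1.32 to 2.15% of P28 WT counts, 0.37 to 0.52% in fetal-induced ME and 0.50 to 0.62% in birth-induced ME. The part of length, RNA quality or library preparation in the member shift was not tested.

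**Figure D4:**
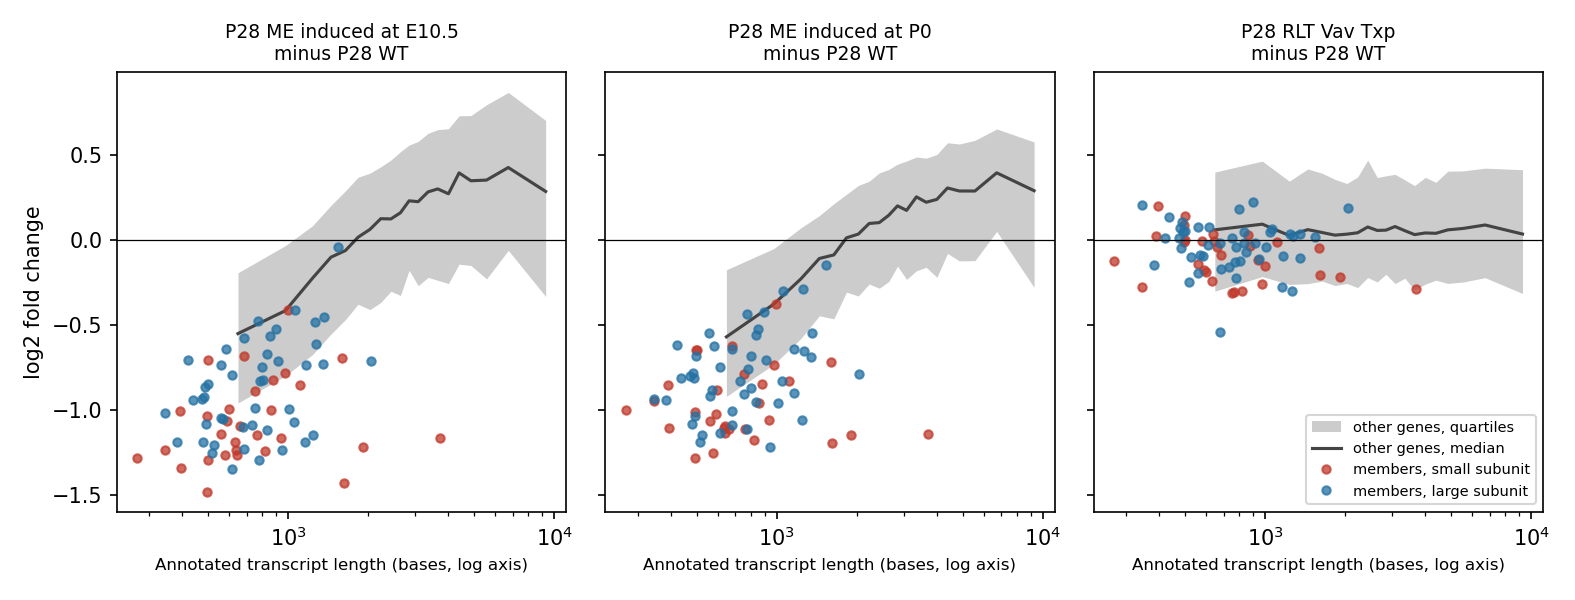
Log2 fold change against annotated transcript length (log axis) for 3 comparisons with P28 WT. The line and band are the median and quartiles of other protein-coding genes in 20 length bins, points are members; in both ME comparisons the members lie mostly below the trend of other genes, and in the RLT comparison both trend and members lie near 0.

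Offsets that remove each library's length trend, estimated from genes that are not members, left a smaller shift. For transcript length, the genes behind that trend were not cleared of ribosomal protein pseudogenes or of ribosome components outside the naming rule. Their part in the offsets was not tested. With transcript-length offsets 28 of 76 members were called lower, all of them among the 65 called without offsets, and the median was -0.37. In that fit 2.58% of all genes were called lower. Offsets that also took GC content into account left 34 calls and a median of -0.41, with 2.37% of all genes called lower. With offsets for coding length, chosen after the data were seen, 56 members were called and the median was -0.69, with 3.55% of protein-coding genes called lower. Rps7 (-0.72), Rpl17 (-0.74), Rps12 (-0.67), Rpsa (-0.65), Rpl39 (-0.64), Rpl3 (-0.58), Rps27a (-0.56), Rps19 (-0.53) and Rps21 (-0.45) still passed with transcript-length offsets, while Rps6 (-0.37, adjusted p = 0.106), Rps14 (-0.29), Rpl10 (-0.21), Rpl22 (-0.13) and Rps26 (-0.04) did not. For Rps20, Rps24 and Rps3 the annotation gives transcripts of 3706, 1613 and 1908 bases but coding lengths of 357, 399 and 729, so their offset values (-1.53, -1.39 and -1.25) rest on a length that may not be that of the mRNA present.

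**Figure D5:**
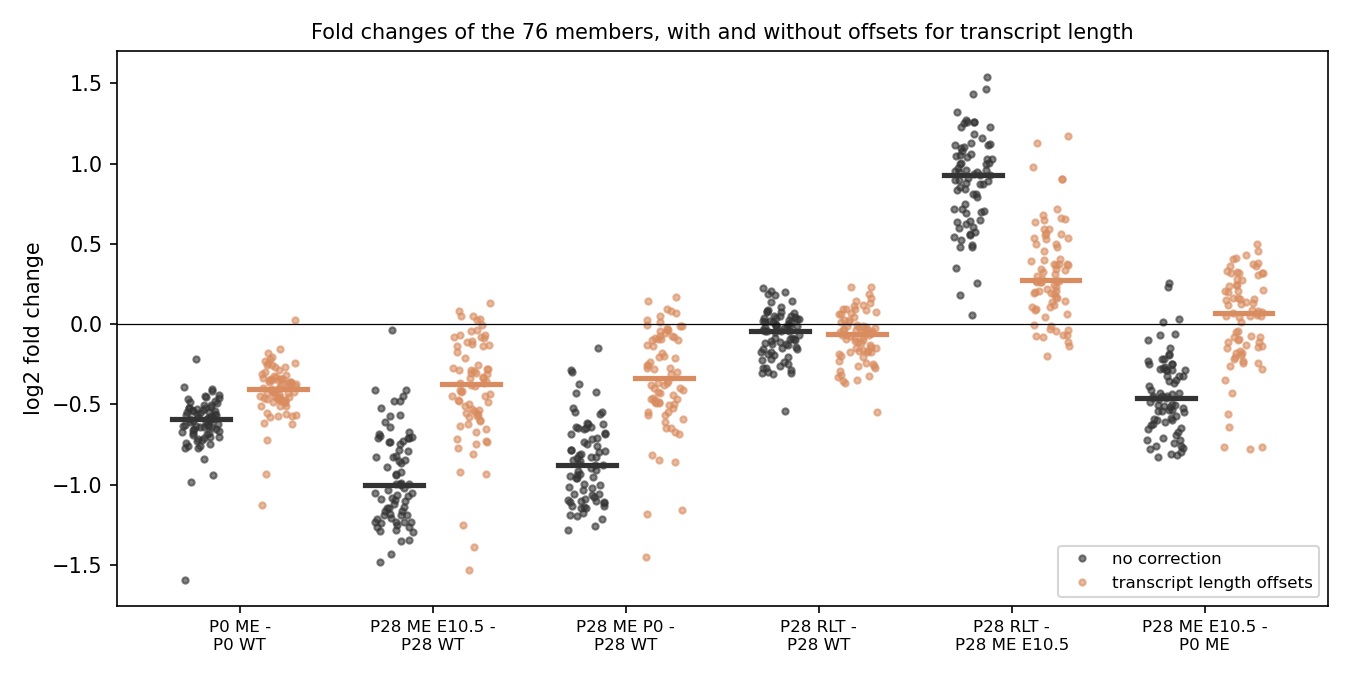
Log2 fold changes of the 76 members in 6 comparisons without (dark) and with (orange) offsets for transcript length; points are genes and bars are medians. The median moves from -0.999 to -0.37 for fetal-induced ME against WT, from -0.88 to -0.33 for birth-induced ME and from 0.93 to 0.28 for RLT against fetal-induced ME.

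The members were also lower in birth-induced ME, closer to the threshold of the test. Against P28 WT, 36 of 76 members were called lower and none higher, with 1.08% of all genes called lower. The median was -0.88, beside -0.09 for all genes tested. The libraries did not overlap for 73 members, and 10.4% of all genes separated downwards in this way. The adjusted p of the called members lay between 0.0201 and 0.0499, close under the threshold, so single libraries decided the count. With any of 7 of the 8 libraries left out no member passed (the lowest adjusted p in those fits was 0.0566, and 67 to 70 members had an unadjusted p under 0.05), whereas 47 passed without P28 WT library 4. All 76 log2 fold changes were below 0 in each of these 8 fits. With plain library totals, 14.4% of the called genes were higher in ME in place of 31.5%, and 53 members were called.

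The members called with the largest falls were Rps12 (-1.28, adjusted p = 0.0463), Rps25 (-1.25, adjusted p = 0.0418), Rpl35 (-1.22, adjusted p = 0.0497), Rps24 (-1.20, adjusted p = 0.0454) and Rpl32 (-1.19, adjusted p = 0.0201). Rps25, a small-subunit protein used by several viral internal ribosome entry sites, had 1239, 1618, 1220.5 and 976 CPM in WT and 534, 521, 530.2 and 532 CPM in birth-induced ME. Rpl32 had 1809, 2273, 1858 and 1511 CPM in WT and 875, 800.2, 754 and 837 CPM in birth-induced ME. The birth-induced libraries were tightly grouped for both genes and far below WT. At the other end was Rpl4 (-0.15, adjusted p = 0.615).

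Of the small-subunit members 20 of 30 were called in birth-induced ME (median -1.02), and of the large-subunit members 16 of 46 (median -0.80). Rps19 had 731, 700.4, 673 and 779 CPM in birth-induced ME (-1.10 ± 0.22 against WT, adjusted p = 0.0287) and Rps6 had 622, 595, 580.5 and 609 CPM (-0.85 ± 0.19, adjusted p = 0.0353). By length class, other genes had medians of -0.59, -0.26, 0.07 and 0.28 and the members -0.92, -0.78, -0.79 and -1.14. With transcript-length offsets 5 members were called lower, among them Rps3, Rps7, Rpl3 and Rpsa, beside 0.248% of all genes, with a median over all members of -0.33. The erythroid markers summed to 183 to 226 CPM in birth-induced ME against 477 to 643 CPM in WT. The macrophage markers summed to 47.7 to 64.3 against 77.6 to 111 CPM. Kit was at 794 to 1046 against 586 to 748 CPM, and Ly6a at 198 to 241 against 267 to 337 CPM. The part of these shifts in the result was not tested. The comparison shares its WT libraries with the fetal-induced one.

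Birth-induced and fetal-induced ME cells were also set directly against each other. No member was called in either direction, as against 0.0477% of all genes, none had an unadjusted p under 0.05 (edgeR), and the median was 0.08. DESeq2 called none, limma voom with quality weights called 3 as higher in birth-induced ME, and a fit of these 8 libraries alone called 6. The member estimates ran from -0.11 for Rpl4 to 0.64 for Rps10, with a median SE of 0.23. A call needs a difference well above its SE, so differences of that size and larger could go undetected.

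RLT cells, although ME was induced in them at E10.5 as well, had member levels near those of WT. Against P28 WT no member was called (4.12% of all genes were called in either direction), none had an unadjusted p under 0.05 in edgeR and DESeq2 called none. The median was -0.04, the estimates ran from -0.54 (Rpl24) to 0.22 (Rpl21), and the median of all genes tested was 0.01. Rps12 had 219, 454, 495 and 558 CPM and Rps24 had 428, 890.3, 991 and 1113 CPM in the RLT libraries. Library 1 was the low one for both genes, below every WT library, and the other three lay within the WT range. Without library 1 the median against WT was 0.09.

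Against fetal-induced ME, 65 of 76 members were higher in RLT cells and none lower, while 8.5% of all genes were called higher. The median was 0.93, beside 0.12 for all genes tested, and without RLT library 1 it was 1.07 with 68 members called. Rps21 (1.54, adjusted p = 0.0019), Rps12 (1.47, adjusted p = 0.0035), Rps10 (1.43, adjusted p = 0.033), Rpl39 (1.32, adjusted p = 0.0053) and Rps27a (1.27, adjusted p = 0.0027) rose most. Rpl4 (0.06, adjusted p = 0.842) was lowest. Of the small-subunit members 28 of 30 were called and of the large-subunit members 37 of 46.

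Rps27a had 442, 866, 868 and 998 CPM in the RLT libraries and 295, 378, 308 and 331 CPM in fetal-induced ME, so each RLT library exceeded each fetal-induced one. With transcript-length offsets 23 members were called higher in RLT, beside 5.91% of all genes, with a median of 0.28. The 10 macrophage markers were all called higher in RLT than in fetal-induced ME, and also than in WT. Library 1, with the highest macrophage sum (3364 CPM), had the lowest member share of the group, and library 2, with the lowest sum (790 CPM), the highest. Against P28 WT, the RLT libraries also lay apart in the summed LSK markers (2323 to 2984 against 3473 to 4025 CPM) and in the erythroid (1148 to 2425 against 477 to 643 CPM) and neutrophil and myeloid markers (2039 to 6779.7 against 705 to 926 CPM). The same held for the mast and basophil (88.8 to 206 against 7.87 to 43.6 CPM) and hepatocyte markers (279 to 718 against 226 to 249 CPM). Ly6a was at 179 to 218 CPM in the RLT libraries against 267 to 337 CPM in P28 WT. The part of these markers' cells in the member levels was not tested.

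At birth, ME and WT liver cells differed in 1 called member. Rpsa had 853, 1009, 1207 and 1076 CPM in P0 WT and 572, 736, 651 and 715 CPM in P0 ME (-0.63 ± 0.15, adjusted p = 0.0371), and the groups did not overlap. Over all genes 0.278% were called lower. All 76 estimates were below 0, with a median of -0.59 beside -0.01 for all genes, and 65 had an unadjusted p under 0.05. The members come from the same libraries, so these are not 65 separate results, and the share of all genes under that threshold is not given. The largest estimates belonged to the barely counted Rpl24 (-1.60, adjusted p = 0.217) and Rps10 (-0.98, adjusted p = 0.33), and the smallest to Rpl4 (-0.39, adjusted p = 0.197) and Rpl23a (-0.22, adjusted p = 0.767).

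These P0 values rest on few libraries. The SD of the library medians of the members, pooled over the groups compared, was 0.48 here and 0.18 for fetal-induced ME against P28 WT. The median SE of the members was 0.23 in both comparisons, so it does not reflect that difference. P0 WT library 4 was high in most members: Rps12 had 239, 333, 420.3 and 850.2 CPM in P0 WT and 147, 330.2, 213 and 339.5 CPM in P0 ME. Without that library the median was -0.29, and 1 member was called. Without P0 WT library 1, the one with few erythroid and myeloid transcripts, 36 members were called and the median was -0.80. The share of all genes called in these fits is not given, so a general rise in calls cannot be told apart from a rise in the members. Other short genes were lower too, with a median of -0.29 under 800 bases and 0.10 above 3000 bases. With transcript-length offsets 4 members were called, among them Rpsa, Rpl3 and Rpl36a, beside 0.673% of all genes called lower, and the median was -0.40. In a fit of the P0 libraries alone with the replicate number as a block, chosen after the data were seen, no member was called, 66 had an unadjusted p under 0.05 and the median was -0.53.

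WT cells of P28 marrow and P0 liver were compared next. No member was called (7.68% of all genes in either direction), 2 had an unadjusted p under 0.05 in edgeR, DESeq2 called none and the median was -0.11. The sign of that median depends on the scaling and on 1 library: it was 0.09 with plain library totals, which move the median of all genes from -0.07 to 0.08, and 0.24 without P0 WT library 4. In ME cells induced at E10.5, 8 members were called lower at P28 than at P0 and none higher, with 8.45% of all genes called lower. Rps27a (-0.82, adjusted p = 0.0365), Rps7 (-0.81, adjusted p = 0.0155), Rpl9 (-0.79, adjusted p = 0.0299), Rpl12 (-0.77, adjusted p = 0.0446) and Rps3 (-0.74, adjusted p = 0.0223) led, and Rps24 (-0.82, adjusted p = 0.052) just missed.

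The 8 of 76 members are close to that background, and the count ran from 0 to 25 as single libraries were left out. No member was called without P0 ME library 2 or 4 or P28 fetal-induced library 1, and 25 were called without P0 ME library 1. Rps7 had 833, 1202, 848 and 1159 CPM in P0 ME and 545, 649, 545 and 571 CPM at P28, with no overlap. With transcript-length offsets the picture changed, to 6 members higher and 1 lower and a median of 0.07, with 8.75% of all genes called in each direction. The test of whether the ME effect at P28 differed from that at P0 called no member (0.72% of all genes in either direction). Its member median was -0.36, 7 members had an unadjusted p under 0.05, DESeq2 called none, and 19 were called lower without P0 WT library 4.

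Genes beyond the naming rule were examined as lists, to be read against the 4.44% of all genes called lower and the 7.82% called higher in this comparison. Of 12 tested ribosome components and paralogs outside the naming rule, 6 were lower and none higher in fetal-induced ME against P28 WT (median -0.92). Rps3a1, a core small-subunit protein, had a log2 fold change of -1.05 (adjusted p = 0.002), Fau, the precursor of the small-subunit protein eS30, of -0.96 (adjusted p = 0.007), and Rack1, the scaffold on the small subunit, of -0.67 (adjusted p = 0.031). Rpl22l1, the paralog of Rpl22, went down with it, from 92.5 ± 26.9 CPM in WT to 29.9 ± 3.81 CPM (SD, n = 4; log2 -1.63, adjusted p = 0.0125). With transcript-length offsets 3 of the 6 calls against WT remained and no others were made, beside 2.58% of all genes called lower. In RLT against fetal-induced ME, 7 of the 12 were higher and none lower, beside 8.5% of all genes called higher.

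Among 26 other TOP mRNAs of translation factors and snoRNA host genes, 10 were lower and 2 higher (median -0.58). Tpt1, a TOP-regulated growth protein, fell by 1.04 on the log2 scale (adjusted p = 0.0064), Gas5, a snoRNA host with a TOP start, by 1.07 (adjusted p = 0.0126) and the elongation factor Eef1b2 by 1.00 (adjusted p = 0.0157). Pabpc1, the poly(A)-binding protein, went the other way (0.67, adjusted p = 0.0068), as did Eif4b (0.58, adjusted p = 0.0274). Of 77 mitochondrial ribosomal protein genes 9 were lower and 1 higher (median -0.32), and of 18 genes for the 20S proteasome, another abundant complex of small subunits, 5 were lower and none higher (median -0.29). With transcript-length offsets the TOP list had 5 calls, all among those called without offsets, beside 2.58% of all genes called lower and 3.62% higher. The mitochondrial list had 1 lower call and the proteasome list 1, each among those called without offsets. Their medians were -0.06 and -0.04, beside 28 calls and -0.37 for the members.

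Of 21 genes that control the synthesis of ribosomal proteins, 6 were higher in fetal-induced ME and none lower (median 0.25). Eif4g1, the scaffold of the cap-binding complex, went from 149.8 ± 31.0 to 419 ± 43.3 CPM (log2 1.48, adjusted p = 0.0022). Mtor, the kinase at the head of the pathway, rose by 1.29 (adjusted p = 0.0047), Rptor, its complex partner, by 1.27 (adjusted p = 0.0051) and Larp1, which holds TOP mRNAs in an untranslated store, by 0.93 (adjusted p = 0.0069). These are long genes, and with transcript-length offsets 6 were called higher, 5 of them among those called without offsets, beside 3.62% of all genes, while the list median was -0.11. Of 12 genes of the p53 response to nucleolar stress, 1 (Zmat3, -1.63, adjusted p = 0.0481) was lower and none higher; Cdkn1a (0.11, adjusted p = 0.903) and Mdm2 (0.35, adjusted p = 0.122) did not pass. Rack1, Pabpc1, Eif4b, Cdkn1a and Mdm2 fell outside the rule for named genes and were chosen after their values were seen.

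Processed pseudogenes of ribosomal proteins, a list added after their counts were seen, took 0.23 to 0.45% of counts in P28 WT and 0.10 to 0.13% in fetal-induced ME. Of 202 tested, 72 were called lower and none higher, with a median of -1.41. With transcript-length offsets 22 were called, all among those 72, beside 2.58% of all genes called lower. Reads from a member and from its near-identical copies cannot be separated here, so the 2 sets are not independent.

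The start-site runs were set beside the fold changes of fetal-induced ME against WT, with no test. The 35 members with a run of at least 6 bases in the start window had a median log2 fold change of -1.08, and 29 of them were called. The 21 with a shorter run had a median of -0.85, and 17 were called. Both sets spanned most of the range of the other, from -1.48 to -0.04 with a run and from -1.28 to -0.41 without. Among the 76 members, the rank correlation of this fold change with coding length was 0.42 and with transcript length 0.33, given as descriptions over genes of the same libraries.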

How the data were processed

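RNA-seq was done on 24 mouse libraries in 6 groups of 4. The values used are counts per gene that the authors deposited in a single table. The labels' protocols name the Qiagen RNeasy Plus kit and Clontech SMARTer libraries, and the submitters' processing notes name STAR 2.7.9a, Subread, featureCounts 2.0.3 and the build GRCm38. The strand setting and the treatment of reads that match several places are not given in the sources used here. Of 55774 rows, 287 repeats of a gene entry with identical counts were dropped.

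Genes were kept with edgeR's filterByExpr (minimum count 10), scaled by TMM and tested with edgeR 4.0.16 (R 4.3.3) by the robust quasi-likelihood F-test, with 1 mean per group over all 24 libraries and 18 residual degrees of freedom. P-values were adjusted by Benjamini-Hochberg over 23059 genes and called under 0.05. Counts of members at an unadjusted p under 0.05 are given without the share of all genes. The same holds for calls in alternative fits unless a share stands beside them. Members measured in the same libraries are not independent of one another. CPM are counts scaled to a common library total by the TMM effective library sizes; shares of counts use plain totals. Transcript lengths came from GENCODE M21, taking the shortest principal transcript. Length offsets were natural splines with 5 degrees of freedom per library, fitted on genes that are not members. DESeq2 1.42.0, limma 3.58.1 (voom with quality weights), other scalings, no filter, the compared groups alone, leave-one-out fits and a fit blocked on the replicate number were alternatives. Scripts were tested on simulated data. Depth was 31233688 to 89774511 counts, and no 2 libraries of a group agreed within sampling noise.

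Named members were, per comparison, the 5 called with the largest changes each way, the 2 highest and 2 lowest, and a fixed set with known roles or disease links; other lists gave up to 5 called genes each. A few genes that this rule names are not reported here. The members and lists were chosen with earlier results of these data known.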

Additional observations from a re-analysis of the deposited data

Results flagged for a closer look

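Among the members printed per library and the member share, 11 of 102 groups of 4 had a library whose gap to its nearest neighbour was, as a share of the group's range, above Dixon's 95% critical value, and over all members 42 of 456 groups did. Chance alone gives about 1 in 20. The member share was far from the other libraries in RLT library 1 (3.28%) and in birth-induced ME library 3 (2.91%). RLT library 1 also stood apart for Rpl17 (279.9 CPM), Rpl32 (887 CPM) and Rps7 (671 CPM), each low. P0 WT library 4 stood apart for Rpl39 (487 CPM), Rps21 (441 CPM) and Rpl22 (577 CPM), each high. The remaining values were Rps21 in birth-induced ME library 2 (109.7 CPM, high), Rpl4 in fetal-induced ME library 2 (1589.9 CPM, high) and Rps6 in P28 WT library 1 (897 CPM, low).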

How the results depend on the processing

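The median member log2 fold change stayed within the spread between replicates in 91 of 105 alternatives and in all 80 fits that left out a library. That spread, the pooled SD of the library medians, was wide at 0.48 for P0 ME against WT and 0.44 for WT by age. As single libraries were left out, these medians ran from -0.80 to -0.29 and from -0.28 to 0.24. Staying within the spread thus allows a change of sign. Counts of called members depended more on the choice made. They are given below without the share of all genes called in the same fit. For fetal-induced ME against P28 WT (65 called), transcript-length offsets gave 28 and offsets for GC and length 34, with medians of -0.37 and -0.41, and coding-length offsets a median of -0.69. For birth-induced ME against WT (36 called) these offsets gave 5 and 7 with medians of -0.33 and -0.34, coding length a median of -0.60, DESeq2 67, voom 73, the compared groups alone 74 and the replicate block 56. For RLT against fetal-induced ME (65 called) they gave 23 and 28 with medians of 0.28 and 0.34, and coding length 0.49. For P0 ME against WT (1 called), plain totals, no filter, the compared groups alone, voom and the P0 libraries alone with a replicate block gave 0, length offsets 4, GC and length 5, coding length 15, DESeq2 7, and the libraries with replicate numbers 2 with or without the replicate block. For fetal-induced ME at P28 against P0 (8 called), RLE scaling gave 17, plain totals 22, TMM without the members 4, the compared groups alone 28, voom 26, DESeq2 25 and the replicate block 16. The median there was 0.072, -0.015 and -0.14 with length, GC and length, and coding-length offsets. Where no member was called, coding-length offsets gave 1 for RLT against WT and 3 for WT by age, voom gave 1 for WT by age, 3 for birth-induced against fetal-induced ME and 2 for the difference of the ME effects, and the compared groups alone gave 6 for birth-induced against fetal-induced ME. Plain totals moved the median of that comparison to 0.20, and length offsets that of the difference of the ME effects to 0.0071. The cause of these changes was not tested.

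Leaving out 1 library gave 43 to 60 called members for fetal-induced ME against WT, 0 to 47 for birth-induced ME against WT, 50 to 68 for RLT against fetal-induced ME, 0 to 36 for P0, 0 to 25 for ME by age, 0 to 2 for WT by age and 0 to 19 for the difference of the ME effects. It gave 0 in every fit of the other comparisons. Members near 0 changed sign: Rpl4 became 0.029 and 0.061 (length, GC and length) for fetal-induced ME against WT, -0.106 to 0.0031 as single libraries were left out (above 0 without fetal-induced library 1), -0.0801 and -0.13 for RLT against fetal-induced ME, and 0.00601 with plain totals for birth-induced against fetal-induced ME. Rpl23a at P0 became 0.0289 and 0.0442, with -0.457 to 0.0742 as single libraries were left out (above 0 without P0 WT library 4). Deviations of same-numbered libraries had a median correlation of 0.03 over 40 pairs (-0.394 to 0.66), and 8 of 20 libraries correlated best with their own number. At P0, WT and ME libraries of 1 number correlated at 0.66, 0.053, 0.371 and 0.464, a hint of pairing that number 2 does not share, so no pairing was assumed. RLT libraries have no number in the labels and stayed out of the block.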
